A study of Caenorhabditis elegans with 31 samples.

Results

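The nuclei described here carried the RNA of the pharyngeal glands, a small set of secretory cells of the foregut, and came from whole adult *Caenorhabditis elegans*. They were chosen by a score, the share of a nucleus's UMIs (unique molecular identifiers, which tag single captured RNA molecules) that lay on 7 gland genes: phat-2, phat-3, phat-4, phat-6, dod-6, scl-5 and pqn-75. A nucleus was a member when it held 800 to 20000 UMIs, had at least 3 of the 7 genes detected and lay in the top 2% of the scores of its own library. The rule found 823 members among 57155 nuclei in that UMI range, or 1.44%, of 85180 deposited. Since measured values chose the members, every comparison of members with other nuclei is given as a description, with no test.

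The gland cells lie in the posterior bulb of the pharynx and send processes forward that open into the pharyngeal lumen, where their secretions meet the food. The phat genes (pharyngeal gland toxin-related) encode small secreted proteins, and HLH-6, a basic helix-loop-helix transcription factor, drives gene expression in these cells. The scl genes encode SCP-like extracellular proteins, pqn genes encode proteins rich in glutamine and asparagine, and dod-6 was named as a gene downstream of the transcription factor DAF-16.

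Single-nucleus libraries were made from whole worms of the strain JK560, which carries the mutation fog-1(q253) in every group. Its germline develops but no embryos are fertilised. The 31 libraries fell into 5 batches named in the labels, and the study asked how the response to alcohol is seen across generations. Generation P0 without treatment gave 1 library of sorted nuclei and 1 of unsorted nuclei in batch 1, and 3 of unsorted nuclei in batch 3. Lines labelled water or 0.05% ethanol gave 2 libraries each in F1 and in F3 in batch 2. Lines labelled water, 0.05% ethanol or 0.5% ethanol gave 3 libraries each in F3 in batch 4 and 3 each in F1 in batch 5. Untreated and water libraries never shared a batch and are not compared. For 0.5% ethanol the generation cannot be told apart from the batch. Both doses are compared with the same water libraries. The labels do not say whether replicates were separate cultures, so p-values measure only the spread between these samples, which may be technical.

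A library held 1116 to 4850 deposited nuclei and 1218248 to 25500166 UMIs in all. The replicate 2 libraries of batch 5 were the shallowest, at 1218248 to 1439256 UMIs. Libraries of one batch shared cell barcodes, with 0 to 233 shared (median 27.5) in 104 pairs, while 361 pairs from different batches shared a median of 2 and at most 10. In all, 3824 nuclei had a barcode also present in another library of their batch, and 56 of them were members. Without these nuclei the rule chose 795 members of 55171, and 24 of the 25 leading genes given below stayed among the first 25. No doublets were called or removed.

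A library gave 3 to 70 members, with a median of 24. Water F1 gave 24 and 34 in batch 2 and 7 to 39 in batch 5, 0.05% ethanol F1 gave 9 and 38 and then 3 to 39, and 0.5% ethanol F1 gave 4 to 37. Water F3 gave 32 and 70 in batch 2 and 31 to 39 in batch 4, 0.05% ethanol F3 gave 16 and 20 and then 20 to 40, and 0.5% ethanol F3 gave 24 to 46. These numbers follow from the top 2% and carry no information on how many gland nuclei a group had. In 5 libraries fewer than 10 members were found, and in all 3 replicate 2 libraries of batch 5 the number was 7 or lower. The median UMI count of members was 1058 to 2842.5 over the libraries (median 2317), beside 1211.5 to 2399 (median 1787) for the other nuclei.

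The score of the members was low in absolute terms. The median member spent 0.967% of its UMIs on the 7 genes (median of the library medians, range 0.267% to 1.95%), whereas the median of the other nuclei was between 0% and 0.0269%. A score of at least 1% was reached by 429 members (52.1%), at least 2% by 193 (23.5%), at least 5% by 47 (5.71%) and at least 10% by 7. The lowest member of a library had a score of 0.183% to 0.780% (median 0.414%), and the highest nucleus outside with 3 of the genes had 0.0413% to 0.747% (median 0.363%, 30 libraries). The members just inside and the nuclei just outside were therefore alike in score. Of the 1159 nuclei in the top 2%, 336 had fewer than 3 of the genes and were not members.

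Most of the score was dod-6. It was the most abundant of the 7 genes in 773 members (93.9%), scl-5 in 9, phat-4 in 8, pqn-75 in 2 and phat-2 in 1, with a tie in 30. It held 67.9% of the UMIs of the 7 genes in members and 76.4% in the other nuclei. Of the members, 246 had 3 of the genes, 215 had 4, 216 had 5, 100 had 6 and 46 had all 7. At least 1 UMI was found for dod-6 in 822 members, for scl-5 in 649 (78.9%), for pqn-75 in 583 (70.8%), for phat-3 in 498 (60.5%), for phat-6 in 421 (51.2%), for phat-4 in 419 (50.9%) and for phat-2 in 208 (25.3%). The members held 1.74% of the UMIs of all nuclei in the range but 46.6% of those on the 7 genes, so most of the UMIs on these genes lay outside the members.

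Levels are given as CPM, the UMIs of a gene per 1000000 UMIs, with the UMIs of the members of a library summed, and ratios were formed after adding 10 CPM to both sides. The member level of dod-6 had a lowest value of 1904 CPM, a median of 8781 CPM and a highest value of 17387 CPM over the 31 libraries, beside a median of 196 CPM in the other nuclei. For scl-5 the member level was 244, 1170 and 8179 CPM in the same order, beside 16 CPM. For pqn-75 it was 219, 818 and 2770 CPM, beside 13.4 CPM. These 3 genes were higher in the members of all 31 libraries, at a median log2 ratio of 5.44 for dod-6, 5.48 for scl-5 and 5.17 for pqn-75.

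The 4 phat genes of the rule encode the gland proteins themselves. The member level of phat-3 was 190, 412 and 1170 CPM (lowest, median, highest), beside a median of 6.72 CPM in the other nuclei. That of phat-6 was 95.2, 384 and 1052 CPM, beside 4.70 CPM. That of phat-4 was 0, 418 and 4406 CPM, beside 4.81 CPM. That of phat-2 was 0, 76.3 and 508 CPM, beside 1.32 CPM. phat-3 and phat-6 were higher in members of all 31 libraries (median log2 ratio 4.68 and 4.69), phat-4 in 27 (4.48) and phat-2 in 26 (2.98). When each gene was left out of the rule in turn and the members were chosen by the other 6, the median log2 ratio of the gene left out was 5.34 for dod-6, 5.37 for scl-5, 5.00 for pqn-75, 4.59 for phat-3, 4.55 for phat-6, 4.13 for phat-4 and 2.29 for phat-2. It was positive in 31 libraries for dod-6, scl-5 and pqn-75, in 30 for phat-3 and phat-6, in 27 for phat-4 and in 25 for phat-2. Without dod-6 in the rule, 590 nuclei were chosen, of which 538 were among the 823.

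**Figure D1:**
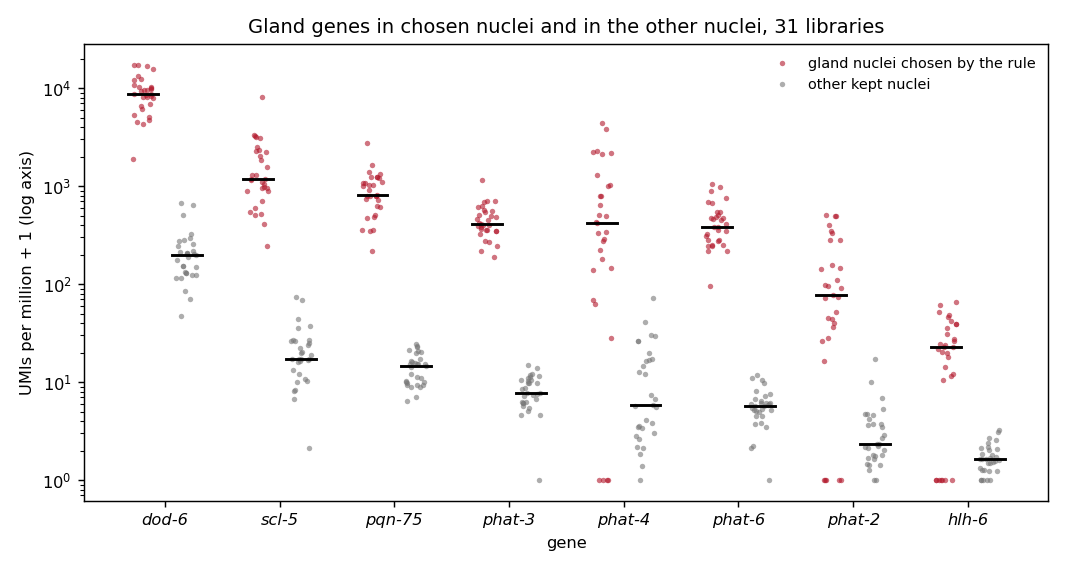
Levels of the 7 genes of the rule and of hlh-6, as CPM plus 1 on a log axis, with 1 point per library for the members and for the other nuclei and bars at the medians over the 31 libraries. dod-6 is the highest of the 7 in members, with a median of 8781 CPM, and the points at the floor for phat-4 and phat-2 are libraries in which the members had 0 UMIs of the gene.

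The label was checked with gland genes outside the rule. hlh-6 had 72 UMIs in members, 25.2 CPM (95% exact Poisson interval 19.7 to 31.7 CPM, counting error only), and 109 UMIs in all other nuclei, 0.677 CPM (0.556 to 0.817). The level in members was 37.2 times that in the other nuclei, and the 72 UMIs lay in 60 members (7.29%) of 24 libraries. phat-1 had 34 UMIs in 14 members of 5 libraries, and 12 of the UMIs were in 1 member. Its level was 11.9 CPM, beside 0.423 CPM in the other nuclei. phat-5 had 10 UMIs (3.5 CPM beside 0.137 CPM). kel-1, which encodes a kelch-repeat protein made in gland cells, went the other way, with 13 UMIs or 4.55 CPM in members and 9.68 CPM in the other nuclei. pha-4, the organ identity factor of the whole pharynx, was at a median of 50.8 CPM in members and 12.0 CPM in other nuclei and was higher in 29 of 31 libraries. Of the other pharynx regulators listed, ceh-22 (median log2 ratio 0.81), also on the pharyngeal muscle list, and tbx-2 (0.16) were higher in members. By that measure pha-1 (-0.40, 9 UMIs) and peb-1 (-0.17, 16 UMIs) were lower, and pax-1 had 0 UMIs in members. By pooled level, the measure used for the gland genes above, peb-1 was higher in members (5.60 CPM beside 3.91 CPM). By the same level pha-1 was lower (3.15 CPM beside 3.85 CPM). Of the gland genes, hlh-6, phat-1 and phat-5 lay by pooled level on the side the label names and kel-1 did not. hlh-6 was counted in few members at this depth.

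Markers of neighbouring tissue were higher in members as well. The summed level of the pharyngeal muscle list had a median of 4219 CPM in members and 505 CPM in the other nuclei and was higher in all 31 libraries. myo-1 and myo-2, the myosin heavy chains of pharyngeal muscle, were at 1249 and 1125 CPM in members, beside 121.6 and 114 CPM, and 602 members (73.1%) had at least 1 UMI of either. Median log2 ratios were 3.18 for the troponin C gene tnc-2, 3.15 for myo-2, 3.07 for myo-1, 2.53 for the troponin I gene tni-4, 2.15 for myo-5 and 1.91 for the troponin T gene tnt-4. When the same kind of rule was run on pharyngeal muscle genes, 194 members (23.6%) were also in that set, and they made up 18.2% of its 1066 nuclei. The corresponding overlap was 10 members (1.22%) with body wall muscle and 2 members (0.243%) with intestine. Part of the chosen nuclei thus held RNA of both gland and pharyngeal muscle genes, and how much of it came from nuclei of each kind was not tested.

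Markers of tissues outside the pharynx differed less. The neuron list summed to 683 CPM in members and 282 CPM in other nuclei and was higher in all 31 libraries, with egl-21 and sbt-1, which act in neuropeptide processing, at log2 ratios of 1.30 and 1.36. The body wall muscle list summed to 9100 CPM beside 7769 CPM, with a median log2 ratio of 0.14. The epidermis list, mostly cuticle collagens, summed to 10446 CPM beside 10633 CPM. The intestine list, which includes the yolk protein genes vit-2 and vit-6, was lower in members, at 17978 CPM beside 27792 CPM, and so was the germline list, at 655 CPM beside 1147 CPM. The coelomocyte list summed to 12.8 CPM beside 34.3 CPM, and the sheath and spermatheca list to 98.9 CPM beside 143 CPM. Yolk and cuticle RNA was therefore abundant in members as it was in all nuclei of the libraries.

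Free RNA gives UMIs in nuclei that do not express a gene, and the share of nuclei with dod-6 was set against nuclei of other tissues. With every nucleus thinned to 800 UMIs, 97.7% of members and 11.4% of the other nuclei had a UMI of dod-6 (99.9% and 22.9% without thinning). For the sets chosen by genes of other tissues, the gland members were first left out. In the 1150 nuclei left of the body wall muscle set, the share without thinning was 15.8%. Their level was 138 CPM at a median of 1996 UMIs. In the 794 nuclei left of the intestine set the share and level were 21% and 131 CPM at 2862.5 UMIs. In the 872 nuclei left of the pharyngeal muscle set they were 42.4% and 622 CPM at 1704.5 UMIs. After thinning, at least 3 of the 7 genes were found in 65.5% of members and 0.197% of other nuclei, myo-2 in 39.9% and 5.76%, and hlh-6 in 1.58% and 0.0479%. The gaps between members and other nuclei for dod-6 and for 3 of the 7 genes follow from the rule, so they are no check of the members. vit-2, a yolk gene of the intestine, was found in 95.7% of members and 96.4% of other nuclei.

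Outside the rule, 7087 genes had at least 1 UMI in members of at least 20 libraries. Their median log2 ratio was -0.33, with 309 at 1 or above, 50 at 3 or above and 6 at 5 or above, and 301 at -1 or below. The 25 with the highest ratio were led by C49G7.3, which the current annotation calls phat-7, with 1714, 6834 and 14542 CPM in members (lowest, median, highest) beside a median of 107 CPM and a median log2 ratio of 5.8. T20G5.8 followed with 714, 5569 and 11660 CPM beside 81.9 CPM (5.71), and F15A4.6, now phat-8, with 876, 2685 and 9049 CPM beside 48.5 CPM (5.52). C49G7.3 had a UMI in 802 members (97.4%), T20G5.8 in 795 (96.6%) and F15A4.6 in 722 (87.7%), shares above those of the 4 phat genes of the rule. ZK596.1 (1817 CPM beside 30.0, 5.49), F41G3.10 (1191 beside 18.0, 5.35) and msrp-7 (989 beside 15.6, 5.30) completed the 6 genes above 5.

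Several of the remaining 19 belonged to families of small secreted proteins. Among the SCP-like genes, scl-6 was at a median of 338 CPM beside 4.00 CPM (log2 ratio 4.37) and scl-3 at 272 CPM beside 6.08 CPM (4.01). Among genes named for their induction by fungal infection, fip-2 was at 1335 CPM beside 87.8 CPM (3.95), fipr-1 at 1692 CPM beside 71.2 CPM (3.93) and fipr-5 at 352 CPM beside 14.8 CPM (3.87). abf-5, of the antibacterial factor family, was at 531 CPM beside 25.9 CPM (3.6). pqn-88 and pqn-25 had ratios of 3.85 and 3.75, C45G9.6 was at 2412 CPM beside 93.7 CPM (4.45), and Y8A9A.2 at 389 CPM beside 4.32 CPM (4.78). The others were M163.8, R06F6.14, F35A5.2, M04G7.1, F41G3.21, F14H12.3, T19H12.15, ZK863.8 and C54D10.3, at 3.72 to 4.86. In the 26 libraries with at least 10 members, 24 of the 25 genes were higher in members of every library, and the exception was F35A5.2, which was higher in 19.

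**Figure D2:**
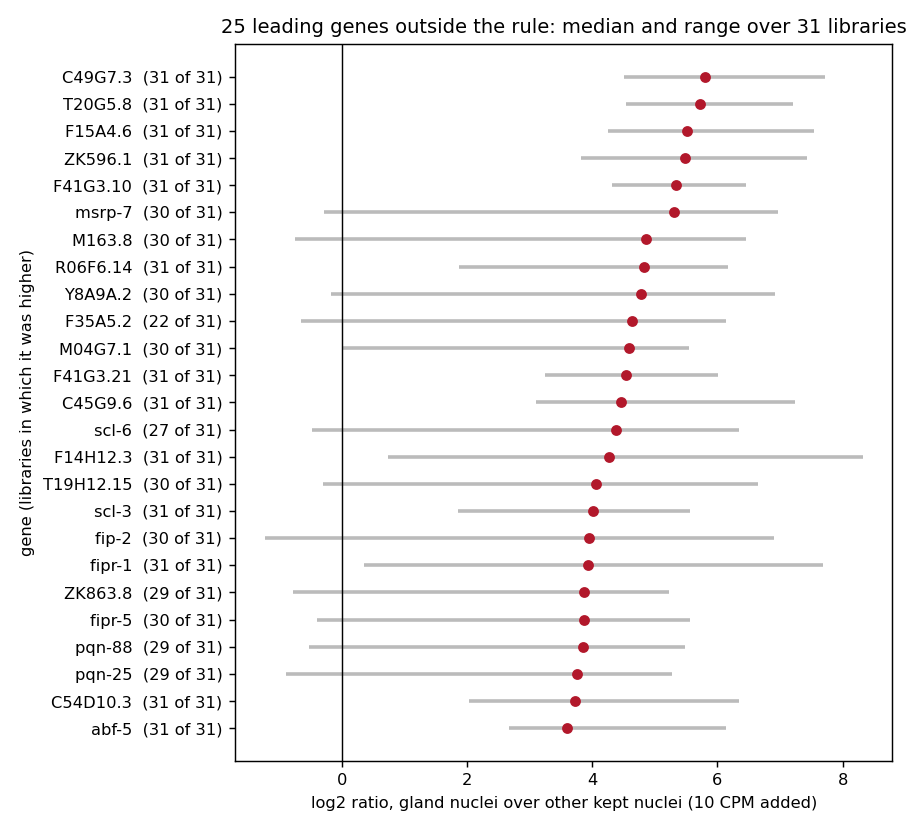
The 25 genes outside the rule with the highest log2 ratio of members over other nuclei (10 CPM added), with a point at the median over 31 libraries, a line over the range, and the number of libraries in which the gene was higher. The first 5 genes were higher in all 31 libraries, and in the 26 libraries with at least 10 members all but F35A5.2 were higher in every one.

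Some of these genes lie side by side. In the WBcel235 annotation, phat-3 is the neighbour of C49G7.3 on chromosome V, dod-6 that of T20G5.8 on chromosome III, and R06F6.14 that of msrp-7 on chromosome II. scl-3 and scl-5 are neighbours on chromosome IV, with scl-6 next but for col-131. Counts of overlapping genes are uncertain, because the use of strand in counting is not given in the sources used here. This applies to pqn-75, which overlaps C35B1.8 and W03D2.9, to F41G3.10 with F41G3.5, C45G9.6 with klp-6, fip-2 with T27E4.5, fipr-1 with F23H12.5, ZK863.8 with srd-4, C54D10.3 with C54D10.4, abf-5 with nhr-27, F14H12.3 with F14H12.9 and phat-2 with anr-10. Members of one family with like sequence could also have shared reads.

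Read family by family, genes outside the rule were high in members in some families of secreted proteins and not in others. The counts below cover genes with a UMI in members of at least 20 libraries. Of the phat genes that pass, 4 are genes of the rule and so high by choice, and the remaining ones, C49G7.3 and F15A4.6, are described above, while phat-1 and phat-5 had too few UMIs to pass and a median log2 ratio of 0. Of 4 scl genes that pass, scl-5 is of the rule, scl-6 and scl-3 are described above and scl-2 was at -0.73. Of 12 fipr genes, none of them in the rule, 8 had a ratio of at least 1, among them fipr-9 (3.20) and fipr-2 (3.05), and the summed level of all fipr genes was 5377 CPM in members beside 818 CPM, higher in all 31 libraries. Of 33 abu and pqn genes 10 were at 1 or above, with pqn-75 of the rule among them, then pqn-88, pqn-25, pqn-31 (3.55) and pqn-94 (3.27). Among 14 saposin-like spp genes, 1, R74.10 (now spp-28), was above 1 (2.20), and none of 23 C-type lectin genes or 7 lysozyme genes was. None of 31 secretory pathway genes (chaperones of the endoplasmic reticulum, translocon and vesicle coat genes) reached 1, and they ran from -0.84 for the chaperone gene hsp-4 to 0.22 for arf-1.2.

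Among genes of alcohol metabolism 1 stood out. sodh-1, which encodes an alcohol dehydrogenase, was at a median of 1013 CPM in members and 192 CPM in other nuclei (log2 ratio 2.23) and was higher in all 31 libraries. By the classes of score given below, its pooled level was 699, 913, 1396, 1610 and 1252 CPM from lowest to highest, beside 207 CPM. It was thus not higher in each next class, and which nuclei its RNA came from was not tested. The other genes of that list ran from -0.49 to 0.62. At the other end of the scale, the lowest ratios over all genes were -2.47 for Y46H3C.7 (64.0 CPM beside 302 CPM) and -2.08 for C52D10.3.

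The members varied along the score. For each of the 26 libraries with at least 10 members (795 members), the share of UMIs of each gene was correlated with the score over the members, and the coefficients were averaged. These coefficients have no p-value, since the members of a library share depth and background. The most alike were C49G7.3 at a mean r of 0.868 (0.619 to 0.983 over the libraries), T20G5.8 at 0.834 and F15A4.6 at 0.748. F41G3.10 (0.656), M04G7.1 (0.615), ZK596.1 (0.595), msrp-7 (0.595), R06F6.14 (0.576), M163.8 (0.518) and Y8A9A.2 (0.504) completed the first 10, all of them among the 25 leading genes. Within the rule itself, where a gene is part of the score, dod-6 was at 0.979, pqn-75 at 0.629, scl-5 at 0.585, phat-3 at 0.527, phat-6 at 0.450, phat-4 at 0.396 and phat-2 at 0.195 (24 libraries).

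By class of score, C49G7.3 and Y8A9A.2 were higher in each next class, and pharyngeal muscle genes were not. From a score under 0.5% (110 members) over 0.5 to 1% (284), 1 to 2% (236) and 2 to 5% (146) to 5% or more (47), the pooled level of C49G7.3 was 1858, 3359, 6919, 14379 and 36319 CPM, beside 119 CPM in the other nuclei. That of Y8A9A.2 was 90.0, 135, 352, 864 and 4858 CPM, beside 4.93 CPM. T20G5.8, F15A4.6, ZK596.1 and fipr-1 were higher in each next class too, but fip-2 and abf-5, also leading genes, were not. fip-2 was at 1106, 2039, 1929, 2734 and 6022 CPM, and abf-5 at 268, 560, 720, 1015 and 503 CPM. hlh-6 was at 8.57, 20.4, 19.8, 45.6 and 97.0 CPM, from 4, 22, 15, 20 and 11 UMIs. The pharyngeal muscle list summed to 3282, 3798, 7202, 6713 and 4541 CPM, beside 607 CPM, and so was above the other nuclei in all 5 classes with its highest value in the middle class. myo-3, a myosin of body wall muscle, was at 386, 508, 328, 383 and 220 CPM, beside 403 CPM. The median UMI count was lower in each next class, from 2838.5 over 2476, 1982.5 and 1795 to 1462, and its part in these differences was not tested.

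The 47 nuclei with a score of at least 5% came from 20 libraries and reached 16.8%. dod-6 led in all 47, with 41.7% to 91.0% of the UMIs of the 7 genes (median 64.7%). scl-5 held up to 36.8% of them, phat-4 up to 46.5% and pqn-75 up to 24.4%, so the second gene differed between nuclei. hlh-6 was detected in 8 of the 47, and myo-1 or myo-2 in 32.

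**Figure D3:**
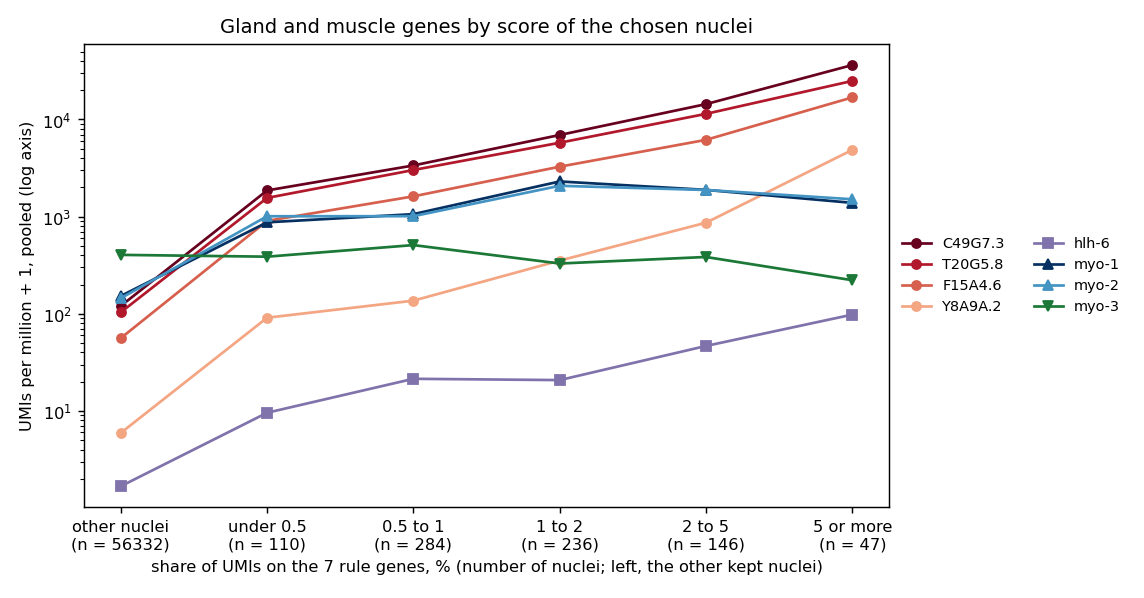
Pooled levels of 5 gland genes outside the rule and of 3 myosin genes by class of score, as CPM plus 1 on a log axis, with the other nuclei at the left. C49G7.3 goes from 1858 CPM in the lowest class to 36319 CPM in the highest, while myo-2 is at 1007, 1009, 2075, 1879 and 1508 CPM.

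The makeup of the 7 genes differed between batches, a pattern noticed in the data and given as a description. Over whole libraries, phat-4 was at 21.2, 69.9 and 125 CPM (lowest, median, highest) in batch 2 and at 10.2, 24.9 and 57 CPM in batch 4. It was at 0.695, 4.48 and 17 CPM in batch 5, at 0.249, 3.31 and 10.9 CPM in batch 3, and at 1.46 and 3.66 CPM in batch 1. Batch 2 thus lay above all libraries of batches 1, 3 and 5. In members the same gene was at 493 to 4406 CPM in batch 2, 223 to 3854 CPM in batch 4 and 0 to 418 CPM in batch 5. Its share of the UMIs of the 7 genes was 8.46% to 16.9% in batch 2, 2.44% to 9.59% in batch 4 and 0.329% to 3.70% in batch 5. phat-2 showed the same order, at 3.87 to 26.5 CPM in batch 2, 2.56 to 8.05 CPM in batch 4 and 0 to 2.92 CPM in the other batches.

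scl-5 and dod-6 were spread otherwise. scl-5 had medians of 26.8 CPM in batch 2, 44.0 CPM in batch 4, 54 CPM in batch 5 and 155 CPM in batch 3. dod-6 was at 178 to 549 CPM in batch 2, 278 to 527 CPM in batch 4, 107 to 461 CPM in batch 5, 433 to 940 CPM in batch 3 and 196 and 261 CPM in batch 1. Among the leading genes, F35A5.2 had 0 UMIs of 896182 in the members of the 8 libraries of batch 2, which allows a level of up to 3.35 CPM (3 counts over the batch), and 4 UMIs in all nuclei of that batch. Its pooled member level was 237 CPM in batch 1, 1355 CPM in batch 3, 742 CPM in batch 4 and 870 CPM in batch 5. Groups are compared below only within batches.

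**Figure D4:**
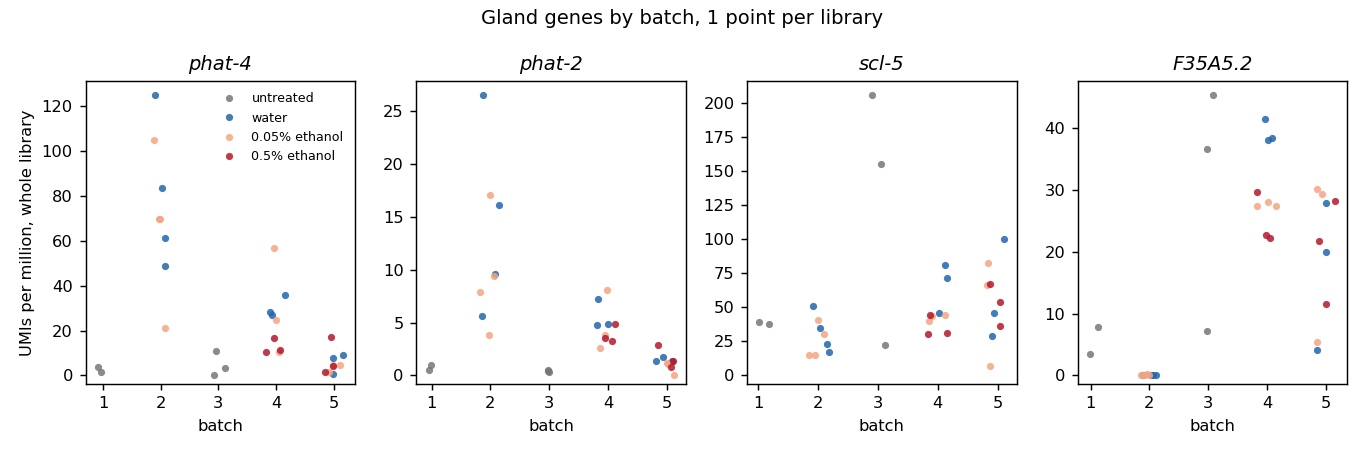
Whole-library levels (CPM) of phat-4, phat-2, scl-5 and F35A5.2, with 1 point per library and the libraries set out by batch. The libraries with the highest phat-4 and phat-2 are in batch 2, where F35A5.2 is at 0.0477 CPM over the batch.

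Ethanol lines were compared with water lines of the same batch and generation by summing the UMIs of the members of each library. Of the 26 water and ethanol libraries, 22 had at least 10 members and entered the fit over 3060 genes, and the 4 left out were all from F1. The 7 genes of the rule were part of that fit, and no test is given for them here because their UMIs chose the members. Few genes passed edgeR's quasi-likelihood test at a Benjamini-Hochberg adjusted p below 0.05. In F1, 2 genes (0.0654%) were called at 0.05% ethanol and 3 (0.098%) at 0.5%. In F3 both doses gave 0, and so did F3 against F1 water of batch 2. At an unadjusted p below 0.05 the F1 comparisons gave 161 genes (5.26%) at 0.05% and 189 (6.18%) at 0.5%, the F3 comparisons 185 (6.05%) and 157 (5.13%), and F3 against F1 water 188 (6.14%). DESeq2 called 9 genes for 0.5% ethanol in F1, 2 for F3 against F1 and 0 in the comparisons of F3.

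The gene that was lower at both doses in F1 was col-155, a cuticle collagen gene. In members it was at 77.8, 32.0 and 26.3 CPM in the 3 libraries of 0.05% ethanol F1 and at 252, 290, 404 and 198 CPM in the 4 of water F1. The groups did not overlap in either batch, judged here and below on CPM after TMM scaling of the libraries, as was so for 5.85% of genes in this direction. The log2 fold change was -2.55 (SE 0.48, edgeR adjusted p = 0.0341). At 0.5% it was at 17.8 and 0 CPM in the 2 ethanol libraries and 404 and 198 CPM in the 2 water libraries, which the 0.05% comparison shares, with a log2 fold change of -4.66 (SE 0.79, edgeR adjusted p = 0.0129). In sums over whole libraries the same gene had log2 fold changes of -0.28 (SE 0.27) and -0.22 (SE 0.34), with an edgeR adjusted p of 1 for both. With the stricter choice of members, the top 1% of scores, the changes were -1.49 and -2.22, and the edgeR adjusted p was 0.843 and 0.984. Without nuclei whose barcode occurs in another library of the batch, a setting chosen after the data were seen, they were -2.18 and -3.71 (edgeR adjusted p 0.340 and 0.364). Both calls also ended when any 1 library of the comparison was left out, except water replicate 3 of batch 5, without which the edgeR adjusted p was 0.0364 and 0.0147.

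The other call for 0.05% ethanol in F1 was F01G10.6, at 1478 CPM in 1 of the 3 ethanol libraries and 0 in both others, beside 0, 27.6, 7.6 and 0 CPM in water (log2 fold change 5.76, SE 0.90, edgeR adjusted p = 0.00462). Of the 190 UMIs in that library, 175 were in 1 of its 38 members, and 6 members had any. Without that library the change could not be fitted, and under DESeq2 the adjusted p was 0.299.

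For 0.5% ethanol in F1, tnt-2, a troponin T gene of muscle, was at 738 and 612 CPM in the ethanol libraries and at 2004 and 1781 CPM in the water libraries (log2 fold change -1.61, SE 0.31, edgeR adjusted p = 0.0386). Y69E1A.5 was at 44.5 and 48.0 CPM beside 259 and 231 CPM (-2.50, SE 0.50, edgeR adjusted p = 0.0386). Leaving out any 1 of the 4 libraries ended both calls, as did leaving out nuclei with shared barcodes (edgeR adjusted p 0.0759 for tnt-2 and 0.097 for Y69E1A.5). In a fit with replicate numbers as blocks the edgeR adjusted p of both was 0.0514, while col-155 kept 0.0118. Over whole libraries the changes were -0.25 (SE 0.30) for tnt-2 and -0.31 (SE 0.31) for Y69E1A.5, with an edgeR adjusted p of 1 for both.

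Where no gene was called, those with the smallest p are given as values. For 0.05% ethanol in F3 they were the collagen gene col-96 (log2 fold change 1.32, SE 0.35), mag-1 (1.49, SE 0.41) and col-155 (1.26, SE 0.36), each at an edgeR adjusted p of 0.811. For 0.5% ethanol in F3 they were the collagen gene col-39 (-4.33, SE 1.16), F27B10.1 (4.41, SE 1.23) and the small heat shock gene hsp-16.41 (-2.35, SE 0.68), at an edgeR adjusted p of 0.942. F27B10.1 rested on 1 ethanol library at 1266 CPM, with 51.4 and 17.2 CPM in the others. For F3 against F1 they were col-81 (1.6, SE 0.37), F14F3.4 (-5.73, SE 1.31) and rrn-3.56 (2.15, SE 0.53), at an edgeR adjusted p of 0.420. F14F3.4 rested on 1 water F1 library, which held 42 of the 43 UMIs of that group. Collagens are products of the epidermis and of other cuticle-making cells, and the epidermis list, mostly collagens, was at nearly the same level in members and other nuclei. Which nuclei the RNA of the collagen genes named here came from was not tested.

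None of the 25 leading genes was called within members in any of the 5 comparisons. These genes were picked for a high level in members. The 10 genes most correlated with the score were all among them, at a mean r of 0.504 to 0.868. Members were chosen by the rank of that score within each library, so the member levels of such genes depend in part on the choice. The lack of calls and the counts that follow therefore do not show whether ethanol changed these genes. For 0.05% ethanol 19 were higher and 6 lower in F1 (median log2 fold change 0.35) and 9 higher and 16 lower in F3 (-0.07). For 0.5% ethanol 16 were higher and 9 lower in F1 (0.10) and 8 higher and 17 lower in F3 (-0.15). For F3 against F1 water 10 were higher and 15 lower (-0.07). Of 23 secretory pathway genes tested, 0 were called in any comparison.

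Muscle markers were at different levels in the members of the groups, but no gene of the 2 muscle lists was called. For 0.05% ethanol in F1 all 6 pharyngeal muscle genes tested were higher (median log2 fold change 0.88, 0 called). At an unadjusted p below 0.05 there were 6, beside 5.26% of all genes. The list summed to 2923 to 3972 CPM in the ethanol libraries of batch 5 and 6649 CPM in that of batch 2, beside 2119 to 2231 CPM and 2640 to 3181 CPM in water. For 0.5% ethanol in F1 all 6 were higher too (1.31), at sums of 3398 to 6592 CPM beside the same 2119 to 2231 CPM. The 5 body wall muscle genes were all lower at 0.5% in F1 (-0.79), at 6014 to 6303 CPM beside 10014 to 10890 CPM, and 4 of 5 were lower at 0.05% (-0.45). Their part in the changes of col-155, tnt-2 and Y69E1A.5 was not tested. In F3 the pharyngeal muscle genes were lower, 5 of 6 at 0.05% and 6 of 6 at 0.5% (-0.44). For F3 against F1 water of batch 2 all 6 were higher (1.08, 5 at an unadjusted p below 0.05, beside 6.14% of all genes).

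Sums over all nuclei of a library do not depend on which nuclei the rule chose, and in them the 7 genes could be tested. In such sums fewer cells of a type and less RNA per cell cannot be told apart. In the fit over 26 libraries and 14505 genes, edgeR called 0 genes in the 4 comparisons of ethanol with water and 95 (0.655%) for F3 against F1 water of batch 2, and 0 of the 7 were called in any. At an unadjusted p below 0.05 the 4 ethanol comparisons gave 0.841% of genes in F1 and 0.965% (140) in F3 at 0.05%, and 1.89% (274) in F1 and 4.53% (657) in F3 at 0.5%. F3 against F1 water gave 10.3% (1494).

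By the median of the 7 genes, the largest difference was that of 0.5% ethanol in F3, where all 7 were lower without passing the test. phat-4 was at 16.6, 11.1 and 10.3 CPM in the ethanol libraries and 36.0, 26.8 and 28.3 CPM in the water libraries, so the groups did not overlap. Its log2 fold change was -1.31 (SE 0.54, unadjusted p = 0.0226, edgeR adjusted p = 0.957). dod-6 was at 329, 319 and 278 CPM beside 435, 527 and 508 CPM (-0.60, SE 0.42). Changes were -0.78 (SE 0.46) for scl-5, -0.80 (SE 0.51) for phat-2, -0.65 (SE 0.35) for phat-3, -0.48 (SE 0.38) for phat-6 and -0.33 (SE 0.28) for pqn-75, all at an edgeR adjusted p of 0.957. After TMM scaling the groups did not overlap in 6 of the 7, all but phat-6, and this was so for 10.7% of all genes in this direction. On unscaled CPM phat-2 overlapped too, with ethanol libraries up to 4.87 CPM and water libraries from 4.75 CPM. This left 5 of 7, and the share over all genes is not given for unscaled CPM. In the fit with replicate blocks the edgeR adjusted p of the 7 was 0.298 to 0.586.

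The leading genes were lower there too. All 25 had a negative log2 fold change (median -0.64, beside -0.0039 over all genes). After TMM scaling the groups did not overlap in 22, beside 10.7% of all genes in this direction. On unscaled CPM they did not overlap in 21, and the share over all genes is not given for unscaled CPM. C49G7.3 was at 218, 215 and 192 CPM in 0.5% ethanol F3 and 283, 384 and 375 CPM in water F3. scl-6 was at 7.91, 7.68 and 6.39 CPM beside 18.2, 18.5 and 17.3 CPM (-1.30, unadjusted p = 0.0104), and M163.8 had -0.76 (unadjusted p = 0.0434). None of the 25 was called, and hlh-6 had 0.02 (SE 0.55). Markers of other tissues differed in these libraries as well. All 7 pharyngeal muscle genes were lower (median -0.71) with groups that did not overlap, beside 10.7% of all genes in this direction. Their sum was 519 to 751 CPM beside 980 to 1240 CPM. The 5 neuron genes were all lower (sum 220 to 269 CPM beside 294 to 364 CPM), as were the 5 epidermis genes (11525 to 12719 CPM beside 12723 to 13553 CPM), and the 6 germline genes were all higher (1163 to 1238 CPM beside 925 to 1078 CPM, median 0.21). The intestine list was higher, at a sum of 30879 to 33892 CPM beside 27182 to 28960 CPM. The body wall muscle list was lower, at 7380 to 8831 CPM beside 9157 to 9440 CPM. The part of these other tissues in the lower levels of the gland genes was not tested.

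The other comparisons gave smaller medians. The effect of 0.5% ethanol in F3 minus that in F1 was -1.61 for phat-4 (SE 0.82, unadjusted p = 0.0623) and -0.35 for dod-6 (SE 0.59), with an edgeR adjusted p of 1 for both. For 0.05% ethanol in F1 all 7 genes were lower (median -0.35), with pqn-75 at -0.55 (SE 0.24, unadjusted p = 0.029), and 20 of the 25 leading genes were lower. For 0.05% ethanol in F3 all 7 were lower, between -0.01 and -0.60, as were all 25 leading genes (median -0.27), of which 1 did not overlap in either batch (0.29% of all genes). For 0.5% ethanol in F1 phat-4 (0.29) and phat-2 (0.41) were higher and the other 5 lower, and the groups did not overlap for pqn-75 alone (-0.39, 2.32% of all genes in this direction). For F3 against F1 water of batch 2, phat-4 (0.46), phat-2 (0.48) and dod-6 (0.17) were higher and the other 4 between -0.17 and -0.63.

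The summed share of a library's UMIs on the 7 genes followed the single genes. It was 0.0370%, 0.0429% and 0.0437% in 0.5% ethanol F3 (mean 0.0412% ± 0.00365, SD, n = 3) and 0.0589%, 0.0692% and 0.0716% in water F3 of batch 4 (0.0666% ± 0.00672, SD, n = 3). The groups did not overlap, at a difference of -0.0254 percentage points. An exact two-sided permutation test gave p = 0.1, the smallest that 3 libraries against 3 allow, and 0.8 after Benjamini-Hochberg adjustment over 8 tests. Replicate numbers were not used as pairs in this or the other tests of shares.

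The 3 remaining comparisons of that share had overlapping groups. For 0.05% ethanol in F1 it was 0.0413% ± 0.0213 beside 0.0505% ± 0.0226 in water (SD, n = 5 each), and the mean difference within batches was -0.0109 points (exact permutation p = 0.5). For 0.05% in F3 it was 0.0542% ± 0.0123 beside 0.0628% ± 0.0139 (SD, n = 5 each), a difference of -0.00664 points (exact permutation p = 0.45), with 0.00297 in batch 2 and -0.0163 in batch 4. For 0.5% in F1 it was 0.0382% ± 0.0124 beside 0.0410% ± 0.0218 (SD, n = 3 each), a difference of -0.00275 points (exact permutation p = 1). The adjusted p was 1 for all 3.

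The share of nuclei with a score of at least 5%, a bar equal in all libraries, rested on 0 to 5 nuclei per library. Its differences from water were -0.0183 points for 0.05% in F1 (exact permutation p = 0.65), 0.00372 for 0.05% in F3 (p = 0.967), -0.00529 for 0.5% in F1 (p = 1) and -0.0354 for 0.5% in F3 (p = 0.7), each with an adjusted p of 1. With a bar of 1%, chosen after the data were seen, the share in 0.5% ethanol F3 was 0.708%, 0.621% and 0.696% (19, 20 and 12 nuclei) and in water F3 of batch 4 0.820%, 0.751% and 1.49% (16, 19 and 25 nuclei). These groups did not overlap, at a difference of -0.345 points (exact permutation p = 0.1, the smallest possible). The 3 other differences at that bar were -0.255 points for 0.05% in F1 (exact permutation p = 0.467), -0.120 for 0.05% in F3 (p = 0.467) and -0.140 for 0.5% in F1 (p = 0.9). No difference in the share of nuclei above either bar passed the test. At 0.5% ethanol none could, since 3 libraries against 3 allow no p below 0.1. At 0.05% the smallest possible exact permutation p was 0.0167 before adjustment. These results therefore do not show that the shares were equal.

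**Figure D5:**
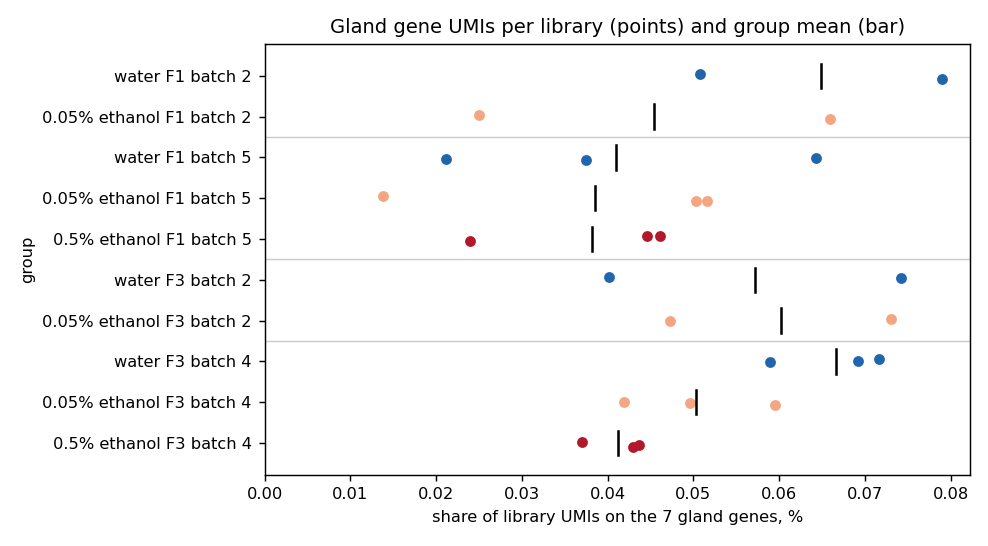
Share of a library's UMIs on the 7 genes of the rule, in percent, with 1 point per library and a bar at the mean of each group. The 3 libraries of 0.5% ethanol F3 sit between 0.0370% and 0.0437%, below the 3 water libraries of their batch at 0.0589% to 0.0716%.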

How the data were processed

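The deposited files hold raw UMI counts per gene and nucleus, 1 sparse matrix per library, made by the authors and headed with software version 3.0.2, per the file headers. The submitters' processing notes name Cell Ranger and the genome build ce10. The aligner's settings, the annotation and how strand was used are not given in the sources used here. All columns were used, and 0 were left out. Gene names are those of the files. Current names, chromosomes and neighbours came from the WBcel235 annotation (Ensembl release 115), which matched 44017 of 46904 features (93.8%), and no coordinates are printed because the builds differ.

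The members and gene lists were chosen with earlier results of these data known. UMIs of members were summed per library where at least 10 members were found, and UMIs of all nuclei were summed for whole libraries. Each set was fitted in R 4.3.3 by the quasi-likelihood test of edgeR 4.0.16 after filterByExpr and TMM scaling, with Benjamini-Hochberg adjustment. The model had 1 intercept per combination of batch and generation and 1 effect per dose and generation. Standard errors are those implied by the F statistic. DESeq2 1.42.0 was an alternative. Shares were compared by exact permutation within batches, in Python 3.11.15 with scipy 1.17.1. Named genes were the 25 with the largest median ratio outside the rule, the 10 most correlated with the score, all genes called in member sums or else the 3 with the smallest p, and the genes of the rule. F35A5.2 was singled out by batch after its values were seen. Both fits were tested on simulated data.

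Replicate numbers were checked as pairs by correlating deviations from group means over 6831 genes. They were taken to pair the samples, with every r above 0.1, for 0.05% ethanol in F1 (0.523 to 0.773), 0.5% in F1 (0.564 to 0.688) and 0.5% in F3 (0.208 to 0.660). Between unlike numbers r was -0.773 to 0.148, -0.585 to -0.0295 and -0.408 to 0.156 in that order. An r above 0.1 thus also occurred between unlike numbers for 0.05% in F1 and 0.5% in F3. Replicate numbers were not taken as pairs for 0.05% in F3 (-0.0659 to 0.344) or for F3 against F1 water, which has 2 pairs (0.0279). The main fits and the permutation tests of shares did not use these pairs. The spread behind their p-values therefore includes differences between replicate numbers, and no paired test of the shares is given.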

Additional observations from a re-analysis of the deposited data

Results flagged for a closer look

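In member sums, the effect of ethanol on 2 collagen genes differed between generations by the interaction term of edgeR's quasi-likelihood fit. For col-155 at 0.05% ethanol, the F3 effect minus the F1 effect was 3.80 on the log2 scale (SE 0.60, adjusted p = 0.00529). Its levels in F3 were 386, 846, 149, 132 and 76.0 CPM in the 5 ethanol libraries and 256, 151, 105, 51.5 and 63.6 CPM in the 5 water libraries, while in F1 the ethanol libraries were the lower ones. For col-96 at 0.05% ethanol the difference was 3.42 (SE 0.60, adjusted p = 0.0104). col-96 was at 54.4, 64.0 and 52.6 CPM in ethanol F1 and at 262, 159, 381 and 176 CPM in water F1. In F3 it was at 341, 692, 397, 169 and 121.6 CPM in ethanol libraries and at 212, 170, 167, 80.2 and 63.6 CPM in water libraries. For col-155 at 0.5% ethanol the difference was 5.88 (SE 0.91, adjusted p = 0.00363), with F3 ethanol libraries at 154, 155 and 89.3 CPM, and there generation and batch cannot be told apart. For 0.05% ethanol the F1 effect came from 1 library in batch 2 and 2 in batch 5, and the F3 effect from 2 in batch 2 and 3 in batch 4, so generation and batch overlap only in part. The 3 differences lost their call without nuclei whose barcode occurs in another library of the batch, at 3.07, 2.41 and 4.26 (adjusted p 0.303, 0.405 and 0.307), and with members from the top 1% of scores (adjusted p 0.612, 0.612 and 0.542), settings chosen after the data were seen. Leaving out single libraries ended the call of col-155 at 0.05% without 0.05% ethanol F1 replicate 1 of batch 5 (adjusted p 0.0542) and at 0.5% without 0.5% ethanol F1 replicate 3 of batch 5 (0.0689). It ended that of col-96 without any of the 3 ethanol F1 libraries or water F1 replicate 1 of batch 5 (0.0619 to 0.103). In whole libraries 0 genes were called for either difference by edgeR (137 and 149 at an unadjusted p below 0.05), with col-155 at 0.32 (SE 0.38) for 0.05% and -0.48 (SE 0.47) for 0.5%, and col-96 at 0.44 (SE 0.33) for 0.05%.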

How the results depend on the processing

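Counts of genes called in member sums changed most with the settings. In the order 0.05% F1, 0.05% F3, 0.5% F1, 0.5% F3 and F3 against F1 water, no filter on low counts gave 31, 11, 28, 19 and 27. With the replicate block the paired fits gave 4 for 0.05% F1 and 1 for 0.5% F1, and the block changed no call of the 7 genes of the rule in whole libraries. For 0.05% F1 and 0.5% F1, leaving out nuclei with shared barcodes (chosen after seeing the data) gave 4 and 0, the top 1% of scores gave 1 and 0, and a fit of only the libraries compared gave 0 and 0. DESeq2 gave 9 for 0.5% F1 and 2 for F3 against F1. Leaving out 1 library gave 0 to 2, 0 to 0, 0 to 1, 0 to 0 and 0 to 2. For 0.05% F1 it was 0 without 0.05% ethanol replicate 2, water replicate 1 or water replicate 2 of batch 2, and for 0.5% F1 it was 0 without water replicate 1 and 1 without each of the others. col-155 ran from -3.27 to -2.20 at 0.05% (edgeR adjusted p 0.0364 to 0.405) and from -7.86 to -3.99 at 0.5% (0.0147 to 0.295). The lower values of the 7 genes of the rule in 0.5% F3 whole libraries kept their direction in all settings run.

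The share of nuclei with a high score changed sign at a bar of 10% for 0.05% F1 (0.00453) and 0.5% F3 (0.0124), at a bar of 1% (chosen after seeing the data) for 0.05% F3 (-0.120), and at 1500 UMIs or more for 0.5% F1 (0.00933). Leaving out 1 library gave -0.0506 to 0.0141, -0.0227 to 0.0368, -0.0491 to 0.0247 and -0.0882 to 0.0309 for 0.05% F1, 0.05% F3, 0.5% F1 and 0.5% F3. The share of UMIs gave -0.0212 to -0.000705, -0.0151 to 0.00186, -0.0127 to 0.00891 and -0.0292 to -0.0229. The median log2 ratio over the 25 leading genes, 4.45, was 3.03 with 50 CPM added and 4.80 with the top 1%. Member sums came from as few as 16 nuclei, which limits what they can show, and the cause of the changed counts was not tested.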
